A study of Mus musculus with 80 samples.

Results

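Ddx4, Dazl, Sall4, Zbtb16, Uchl1, Taf4b and Stk31 are genes by which mouse spermatogonia, the mitotic germ cells of the testis, are commonly recognised. These 7 genes were chosen by name, and all 7 were among the 27128 gene rows of each of the 2 tables examined. The first table held TPM (a transcript level scaled for transcript length and library total) for CD87 positive and CD87 negative germ cells, with 2 libraries each. CD87, the product of Plaur, is the cell surface receptor of urokinase. The second held expected counts (read counts estimated by the quantifier) for 71 single KIT negative cells. All cells came from male mice of the line B6;CBA-Tg(Pou5f1-EGFP)2Mnn/J at postnatal day 5.5, per the labels, although the column headers of the single-cell table read P6. In this line a transgene with Pou5f1 (Oct4) regulatory sequence drives green fluorescent protein, and every group examined was labelled Oct4-GFP positive, so germ cells without that reporter are not represented. For the single cells the sort also removed cells with KIT, the receptor that marks differentiating spermatogonia. No label names the animal behind a library or a cell. The tables allow these identity genes to be compared from cell to cell and between the CD87 fractions. Beside the germ cell label, 23 other germ cell genes summed to 1680.4 to 2362 TPM in the 4 sorted libraries. In the same libraries 11 Sertoli cell markers summed to 32.9 to 156 TPM, so transcripts used as markers of somatic cells were also present. Whether they came from somatic cells was not tested.

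Germ cells differ from somatic cells in how they handle RNA as well as in what they transcribe. DDX4 (also called VASA or MVH) is a DEAD-box RNA helicase of the germ granules, the RNA and protein bodies of germ cells. DAZL binds the 3′ ends of germ cell messages and promotes their translation, and STK31 carries a Tudor domain and a kinase-like domain. SALL4 and ZBTB16 (also called PLZF) are zinc finger transcription factors needed to keep undifferentiated spermatogonia. TAF4B is a germ cell form of a subunit of TFIID, the complex that positions RNA polymerase II at promoters. UCHL1 (PGP9.5) is a deubiquitinating enzyme abundant in spermatogonia and neurons.

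Promoter sequence is shown for 4 of the 7 genes to set the letters beside the levels: Dazl, the most even from cell to cell, and Ddx4, Stk31 and Uchl1, which varied more. The other 3 are Sall4, Zbtb16 and Taf4b. Each line gives the 250 bases before the RefSeq start site of the gene, 5′ to 3′ on its own strand, from RefSeq build GRCm38.p6. The windows are chr17:50293621-50293870 (minus strand) for Dazl, chr13:112652311-112652560 (minus strand) for Ddx4, chr6:49395289-49395538 (plus strand) for Stk31, at the first of its 2 starts, and chr5:66675871-66676120 (plus strand) for Uchl1. Capitals mark matches, on either strand, to the E-box CACGTG, the E2F-type motif TCCCGC, the GC box GGGCGG, the CCAAT box CCAAT and the TATA box TATAAA.
Dazl: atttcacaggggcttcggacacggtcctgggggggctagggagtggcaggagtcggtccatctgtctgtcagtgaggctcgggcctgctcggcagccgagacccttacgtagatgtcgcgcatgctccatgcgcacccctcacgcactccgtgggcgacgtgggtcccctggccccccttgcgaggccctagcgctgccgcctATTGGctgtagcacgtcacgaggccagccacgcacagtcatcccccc
Ddx4: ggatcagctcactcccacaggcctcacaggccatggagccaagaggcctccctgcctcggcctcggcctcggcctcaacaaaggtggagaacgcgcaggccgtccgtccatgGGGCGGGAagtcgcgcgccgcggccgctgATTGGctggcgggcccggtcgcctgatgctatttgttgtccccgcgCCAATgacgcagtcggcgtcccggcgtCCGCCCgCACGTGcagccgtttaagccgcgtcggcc
Stk31: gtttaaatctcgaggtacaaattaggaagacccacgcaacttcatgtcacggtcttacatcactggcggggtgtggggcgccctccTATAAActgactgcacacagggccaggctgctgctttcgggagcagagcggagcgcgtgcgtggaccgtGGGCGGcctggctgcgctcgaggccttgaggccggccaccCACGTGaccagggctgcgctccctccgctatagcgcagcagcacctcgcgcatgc
Uchl1: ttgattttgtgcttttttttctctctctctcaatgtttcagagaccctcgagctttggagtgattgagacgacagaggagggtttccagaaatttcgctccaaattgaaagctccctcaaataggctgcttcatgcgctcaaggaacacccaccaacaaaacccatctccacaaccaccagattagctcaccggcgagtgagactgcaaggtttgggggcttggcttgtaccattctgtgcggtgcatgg
The Ddx4 window held 31 CpG dinucleotides, the Stk31 window 21, the Dazl window 20 and the Uchl1 window 7, beside a median of 6 over 32851 promoter windows of the same length (quartiles 2 and 16). The E-box was found once in Ddx4, starting 29 bases before the start site, and once in Stk31, 55 bases before it. Of all windows 6.02% held that motif. The E2F-type motif, in 16.9% of all windows, was found in Ddx4, where its match overlaps a GC box. The GC box was found at 2 places in Ddx4 and at 1 in Stk31 (32.7% of all windows), the CCAAT box at 2 places in Ddx4 and at 1 in Dazl (33.8%) and the TATA box in Stk31 (12.4%). None of the 5 motifs was found in the Uchl1 window, which says only that these letters are not in it.

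In the sorted libraries the row LOC672857 took 23.9% to 31.2% of the summed TPM. Their depth is unknown, since TPM does not retain it. The sorted libraries listed 12063 to 16267 genes above 0, the fewest in CD87 positive library 2. Plaur, the sorted gene, had 3.53 and 8.92 TPM in CD87 positive and 0.46 and 0.97 TPM in CD87 negative libraries. The 71 cells had 182163 to 6802787 expected counts (median 1585930) and 6962 to 13497 genes at a count of at least 1. Because separate animals are not stated for the 2 libraries of a group, p-values reflect a spread that may be technical. In bulk libraries, fewer cells with a transcript and less of it per cell cannot be told apart.

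In the sorted cells, where TPM allows levels to be compared between genes, Uchl1 was the most abundant of the 7 transcripts and Taf4b the least. Uchl1 ranged from 486 to 836 TPM over the 4 libraries and placed between 66 and 128 among all 27128 rows. Dazl followed at 285 to 379 TPM, without overlap with Uchl1 above or with Ddx4 below. Ddx4 (53.4 to 81.03 TPM) and Sall4 (61.3 to 77.5 TPM) overlapped, and Ddx4 was the higher in 3 of 4 libraries. Zbtb16 (32.5 to 48.2 TPM) and Stk31 (26.1 to 49.1 TPM) also overlapped, each being the higher in 2 libraries. Taf4b lay at 22.7 to 30.6 TPM, and although its range met that of Stk31, it was below Stk31 in each of the 4 libraries. The mean over the 4 libraries was 713 TPM for Uchl1 and 26.5 TPM for Taf4b.

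**Figure D1:**
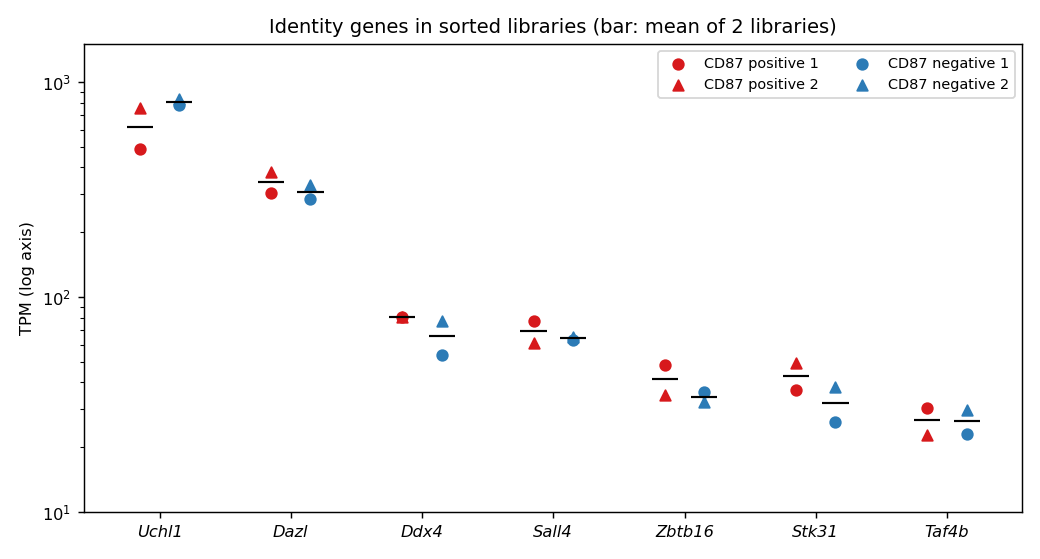
TPM (log axis) of the 7 identity genes in CD87 positive (red) and CD87 negative (blue) libraries, with circles for library 1, triangles for library 2 and a bar at the mean of 2 libraries. Uchl1 and Dazl stand above the other 5 genes in every library, and most pairs of groups overlap.

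None of the 7 genes passed the test between CD87 positive and CD87 negative cells. Over 12715 genes with at least 1 TPM in at least 2 libraries, all 7 among them, limma called 3 higher (0.0236%) and 0 lower (0%), with p adjusted by Benjamini-Hochberg and a threshold of 0.05. Without adjustment 428 genes were higher (3.37%) and 201 lower (1.58%) at the same threshold, and no identity gene was among them. Uchl1 came under that unadjusted threshold after rescaling without LOC672857 (limma p = 0.0442, log2 difference -0.53, adjusted p = 0.874) and after quantile normalisation (limma p = 0.0112, log2 difference -0.59, adjusted p = 0.735). The count of calls changed when 1 library was left out: it was 2988 without CD87 positive library 1, 101 without CD87 positive library 2, and 10 without either CD87 negative library. In these fits a lone library is assumed to vary like those of the other group, whose 2 libraries alone give the spread, so they support nothing about the identity genes.

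Among the RNA regulators, Ddx4 had 81.03 and 80.96 TPM in CD87 positive libraries, against 53.4 and 77.6 TPM in CD87 negative libraries. The groups did not overlap, as was the case for 20.4% of tested genes in that direction, and the lower CD87 negative library set most of the gap (log2 difference 0.33, SE 0.29, 95% interval -0.33 to 0.98, limma adjusted p = 0.873). Dazl had 305 and 379 TPM in CD87 positive libraries, against 285 and 331 TPM in CD87 negative libraries, and the groups overlapped (log2 difference 0.15, 95% interval -0.42 to 0.72, limma adjusted p = 0.929). Stk31 had 36.9 and 49.1 TPM in CD87 positive libraries, against 26.1 and 38.1 TPM in CD87 negative libraries. Its libraries spanned 1.33-fold within the CD87 positive and 1.46-fold within the CD87 negative group, against 1.34-fold between the group means (log2 difference 0.42, 95% interval -0.33 to 1.18, limma adjusted p = 0.863).

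Of the transcription regulators, Sall4 had 77.5 and 61.3 TPM in CD87 positive libraries, against 63.3 and 65.4 TPM in CD87 negative libraries, so that the CD87 negative values lay between the CD87 positive ones (log2 difference 0.10, 95% interval -0.52 to 0.72, limma adjusted p = 0.962). Zbtb16 had 48.2 and 34.96 TPM in CD87 positive libraries, against 36.2 and 32.5 TPM in CD87 negative libraries. Its groups overlapped, and CD87 positive library 1 was the high one (log2 difference 0.25, 95% interval -0.45 to 0.96, limma adjusted p = 0.904). Taf4b had 30.6 and 22.7 TPM in CD87 positive libraries, against 23.1 and 29.8 TPM in CD87 negative libraries, means that differed by 1.01-fold (log2 difference 0.01, 95% interval -0.77 to 0.78, limma adjusted p = 0.997). The deubiquitinase gene Uchl1 had 486 and 752 TPM in CD87 positive libraries, against 780 and 836 TPM in CD87 negative libraries. Uchl1 was the one gene of the 7 whose CD87 positive libraries both lay below the CD87 negative ones, as they did for 14.5% of tested genes. The low value was that of CD87 positive library 1 (log2 difference -0.42, 95% interval -1.07 to 0.23, limma adjusted p = 0.863). The interval of each of the 7 genes reaches at least 0.72 from 0 in 1 direction on the log2 scale, so a difference of that size lies within each interval.

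The sorted fractions differed in transcripts used as markers of other cells. Macrophage markers (13 genes) summed to 360 and 293 TPM in CD87 positive libraries, against 15.3 and 12.6 TPM in CD87 negative libraries. Both genes of that list that passed, Lyz2 and Apoe, were higher in CD87 positive cells (limma adjusted p = 0.0128 and 0.0034). Lyz2, Tyrobp, Adgre1 and the 3 C1q genes stood at 0 in each CD87 negative library, while Cd68 and Fcer1g did not. Adgre1 and C1qc were also at 0 in CD87 positive library 2. Ptprc had 0.66 and 0 TPM in CD87 positive against 0.26 and 0 TPM in CD87 negative libraries. Apoe made up 189 and 128 TPM of the CD87 positive sums, and Cx3cr1 was detected in all 71 single cells. Sertoli cell markers (11 measured) summed to 86.2 and 32.9 TPM in CD87 positive against 90.05 and 156 TPM in CD87 negative libraries. Of these, Sox9 and Gja1 were also detected in 65 and 37 of the 71 single cells, but Clu and Inha in 5 and 2. The Leydig enzymes Cyp11a1, Cyp17a1 and Hsd3b1 and the receptor gene Lhcgr were listed at 0 in all 4 libraries, and the 8 Leydig markers summed to 5.12 and 2.69 TPM in CD87 positive against 20.2 and 13.9 TPM in CD87 negative libraries. That sum was mostly Fabp3 (2.92 and 0 TPM against 14.9 and 9.65 TPM) and Star (1.41 and 2.69 TPM against 4.09 and 3 TPM). Fabp3 and Star were also detected in 29 and 61 of the 71 single cells. Peritubular myoid markers summed to 56.1 and 80.2 TPM in CD87 positive against 28.9 and 22.6 TPM in CD87 negative libraries. Most of that sum was Smoc2 (37.1 and 51.9 TPM against 16.9 and 9.49 TPM) and Ptch1 (14.8 and 13.2 TPM against 8.16 and 7.04 TPM), which were also detected in 64 and 44 of the 71 single cells, whereas Acta2, Myh11 and Des stayed under 1.5 TPM in every library. Endothelial markers summed to 6.15 and 14.6 TPM in CD87 positive against 2.79 and 4.62 TPM in CD87 negative libraries. In CD87 positive library 2 that sum was Pecam1 (7.15 TPM) and Flt1 (7.44 TPM) alone, with Cdh5, Kdr, Tek, Vwf and Esam at 0. The part of other cells in the values of the identity genes was not tested.

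Relatives and partners of the 7 proteins were examined as 7 lists, with 2 further lists of other germ cell and housekeeping genes, and 0 of their members passed in either direction (limma adjusted p, threshold 0.05). The median log2 difference over all tested genes was 0.01. It was -0.04 over 17 TFIID subunits, 0.26 over 15 SALL and NuRD genes, -0.01 over 14 partners and relatives of ZBTB16 and 0.18 over 10 UCH and ubiquitin genes. The 11 DAZ family and poly(A) genes had a median of -0.07, the 14 DEAD-box genes 0.14 and the 11 Tudor genes 0.04, and the last pair of medians changed sign after quantile normalisation (-0.02 and -0.03), that of the Tudor genes also after rescaling (-0.06). Other germ cell identity genes (23 tested) had a median of 0.12 and housekeeping genes (14 tested) 0.25. Members with the smallest p in their lists included Nanos2, a translational repressor of stem spermatogonia, at 6.83 and 3.77 TPM in CD87 positive against 0.90 and 0.94 TPM in CD87 negative libraries (limma unadjusted p = 0.0284, adjusted p = 0.863). Etv5, a transcription factor induced by GDNF, had 47.3 and 43.1 TPM against 13.3 and 14.9 TPM (limma adjusted p = 0.483), and Ret, the GDNF co-receptor, 67.8 and 64.4 TPM against 29.9 and 22.3 TPM (limma adjusted p = 0.597). The others were Dnd1 (log2 difference -0.90), Taf2 (0.54), Taf5 (0.80), Rbbp4 (0.54), Mta2 (0.51), Zbtb7b (1.56), Hdac3 (-2.27, with 1 CD87 positive library listed at 0), Uchl5 (0.68), Uchl4 (-1.41, likewise), Ddx3y (0.75), Ddx39 (0.33), Tdrd7 (1.19), Smn1 (0.83), Tubb5 (0.57) and Hprt1 (0.83).

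In the single cells, 6 of the 7 genes were detected, at an expected count of at least 1, in 71 of 71 cells (exact Clopper-Pearson 95% interval 94.9% to 100%), and Taf4b in 69 (97.2%, interval 90.2% to 99.7%). Of 27106 gene rows 2358 were detected in every cell (8.7%). Reads were not collapsed by molecular identifiers, and all intervals cover counting error only. Levels are given as CPM, a cell's counts scaled to the same total in every cell. CPM is not scaled for length and is compared within a gene. Since no label names the animals behind the cells, they are treated as 1 sample and support no test. Spread is given as the coefficient of variation (CV, the standard deviation over the mean) and as the share of cells within 2-fold of the gene's median.

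Dazl was the most even of the 7. Its lowest cell had 700 CPM, the median was 2309 CPM and the highest cell had 3306 CPM, and 70 of 71 cells (98.6%) lay within 2-fold of the median. Its CV of 0.23 ranked 4 of 2358 among genes detected in every cell, counted from the lowest, where the median CV was 0.62 (quartiles 0.49 and 0.78). The 3 genes with a lower CV were Eef1a1, the translation elongation factor (0.19), Rpl4, a ribosomal protein gene (0.22), and Hsp90ab1, a chaperone gene (0.22). Those 3 were chosen for naming after their values were seen. Of the 100 genes closest to Dazl in median level, 3 had a lower CV, and the median CV of the 100 was 0.40. Those 100 ran from 819 to 5435 CPM. Most of them lay below Dazl, which ranked 12 of 2358 in level, so the match in level is loose. After thinning every cell to 182150 counts the rank of Dazl was again 4 (CV 0.24). The ubiquitin gene Ubb (CV 0.29) and Pabpc1, the poly(A)-binding protein gene (0.35), varied more than Dazl, as did Actb (0.30), Tuba3a (0.33) and the germ cell export factor gene Nxf2 (0.41). That they varied more follows from the rank of Dazl, so these values only give the sizes.

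**Figure D2:**
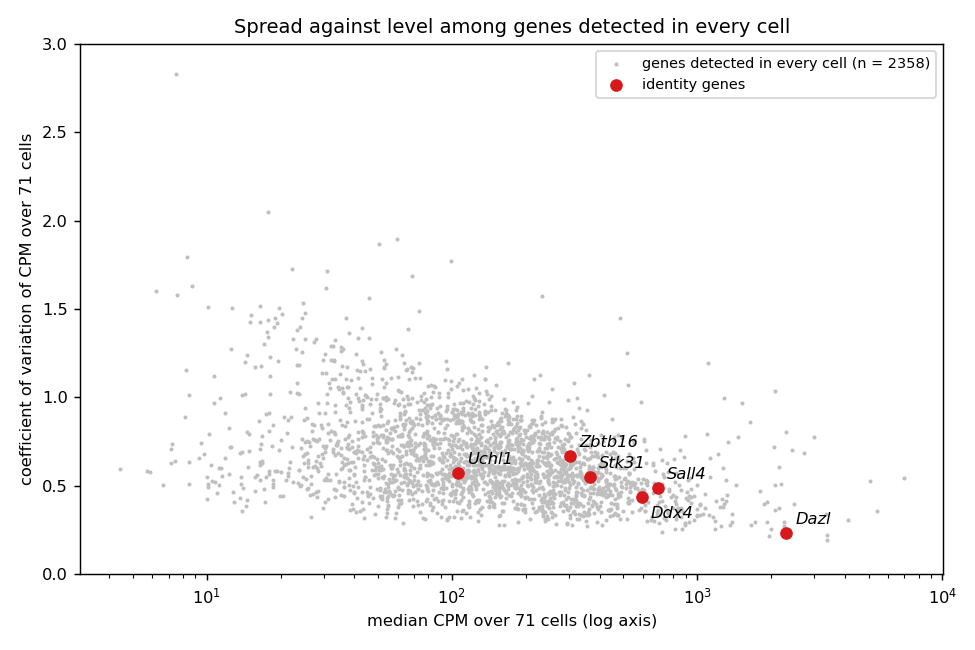
Coefficient of variation of CPM over 71 cells against median CPM (log axis) for the 2358 genes detected in every cell (grey), with the 6 identity genes among them in red. Dazl lies at the lower edge of the cloud with a CV of 0.23, Ddx4 and Sall4 (0.44 and 0.48) lie below the overall median of 0.62, and Zbtb16 (0.67) lies above it.

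The other RNA regulators varied more. Ddx4 ran from 118 CPM in the lowest cell over a median of 594 to 1600 CPM in the highest (CV 0.44, rank 366 of 2358), and 57 cells (80.3%) lay within 2-fold of the median. Of the others, 12 cells were below that window and 2 above it, and none was under 0.1 times the median. Stk31 ran from 18.7 CPM over a median of 364 to 1315 CPM (CV 0.55, rank 836), with 56 cells (78.9%) within 2-fold. One cell, in cluster I, held the 18.7 CPM, and the next lowest had 103 CPM. Against genes of like level neither stood at the edge: 30 of the 100 genes closest in level to Ddx4 and 51 of those closest to Stk31 had a lower CV. Of 12 Tudor domain relatives of Stk31, 0 were detected in every cell, and Rnf17, Tdrd1, Tdrd12 and Snd1 were found in 70 cells each. Of 14 measured helicase genes related to Ddx4, 7 were in every cell, among them Ddx5 (CV 0.33) and Mov10l1, a piRNA factor (0.69).

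Of the transcription regulators Sall4 was the evenest, with a lowest cell at 183 CPM, a median of 693 CPM and a highest cell at 1965 CPM (CV 0.48, rank 549), and 59 cells (83.1%) lay within 2-fold of the median. Its CV exceeded that of 60 of the 100 genes closest in level, and those of the NuRD subunit genes Rbbp4 (0.33) and Chd4 (0.52) lay on either side of it. Zbtb16 spread further, from 1.48 CPM over a median of 303 to 1015 CPM (CV 0.67, rank 1367), with 45 cells (63.4%) within 2-fold. Its CV was above that of 79 of the 100 genes closest in level. Zbtb16 was under 10 CPM in 4 cells (1.48, 1.83, 3.22 and 8.01 CPM), each with at least 1318000 counts, while Ddx4 was at 287 to 749 CPM and Dazl at 1406 to 2628 CPM in the same cells. After thinning, Zbtb16 was detected in 68 of 71 cells. The corepressor genes Sin3a (CV 0.61) and Ncor1 (0.67), whose products ZBTB16 recruits, had spreads like its own.

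Taf4b was the least even. It was listed from 0 to 740 CPM with a median of 69.8 CPM (CV 1.13), and 10 of 71 cells (14.1%) lay within 2-fold of the median, the lowest share of the 7. Its values fell at both ends of the range: 12 cells were under 10 CPM and 21 between 10 and 50 CPM, 5 were between 50 and 100 and 8 between 100 and 200 CPM, and 25 cells were at 200 CPM or more. Of 3708 genes detected in at least 69 cells, 317 had a higher CV, beside a median of 0.71. Other TFIID subunits lay on both sides of it. The 5 of 17 found in every cell had CVs from 0.42 to 0.66, among them Taf9 (0.46), Taf1 (0.57) and Taf2 (0.66). A higher CV than that of Taf4b was seen for its paralogue Taf4a (1.94, in 52 cells), Taf10 (1.91, in 52), Taf12 (1.47, in 58), Taf5 (1.30, in 62) and Taf13 (1.25, in 61). Each of these had a lower median than Taf4b (8.97, 1.79, 13.6, 41.9 and 14.1 CPM, in that order). All remaining subunits had a lower CV than Taf4b. Among them were Taf3, Tbpl1 and Tbp, whose medians of 74.6, 69.4 and 56.3 CPM were closer to its own (CV 0.96, 0.91 and 0.84). Thinned, Taf4b was detected in 65 cells. At a cut of 0.5 counts in place of 1, 70 cells held it.

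Uchl1 ran from 16.7 CPM over a median of 106 to 380 CPM (CV 0.57, rank 966), and 51 cells (71.8%) lay within 2-fold of the median. Of the 100 genes closest in level 31 had a lower CV. The cells outside that window were more often high than low, with 12 above the window and 8 below it, whereas for Ddx4 and Zbtb16 the low cells outnumbered the high ones. Uchl5, another ubiquitin C-terminal hydrolase gene, was found in 69 cells (CV 0.74).

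**Figure D3:**
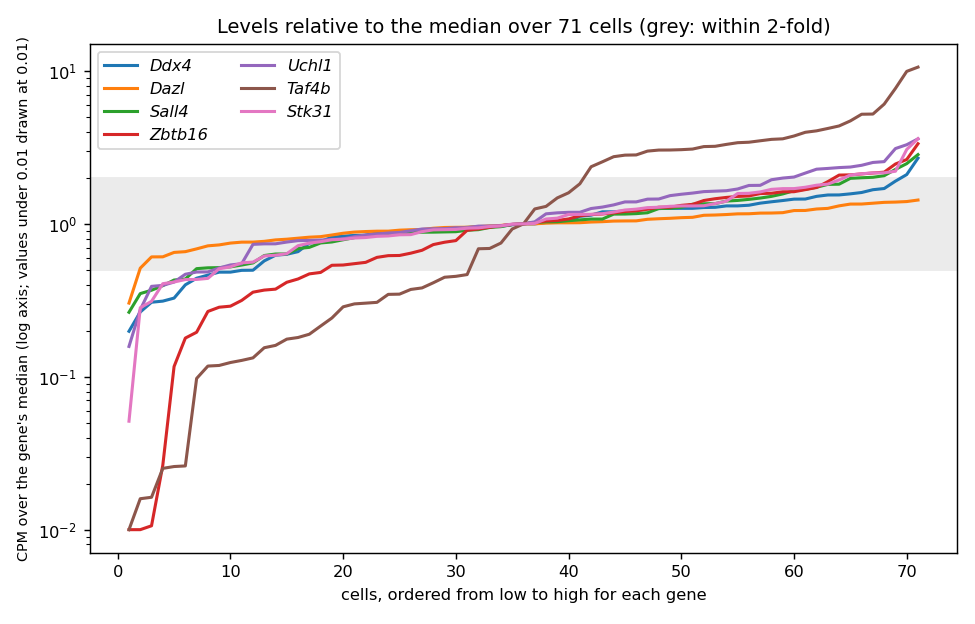
CPM of each identity gene divided by its median over 71 cells (log axis), with cells ordered from low to high for each gene separately and the 2-fold window in grey. Dazl stays in the window in 70 cells, while Taf4b crosses it steeply with 10 cells inside, and Zbtb16 drops away in its 4 lowest cells. Values under 0.01 are drawn at 0.01.

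The deposited annotation splits the cells into cluster I with 9 cells, cluster II with 32, cluster III with 24 and cluster IV with 6. The clusters were made from these same cells and nothing shows that the 7 genes were kept out, so values by cluster are a description. Among the 2358 genes detected in every cell, 840 (35.6%) had a highest cluster median at least 2-fold above the lowest (median ratio 1.75, quartiles 1.44 and 2.29). Of the 7 identity genes 3 reached that ratio: Taf4b, Uchl1 and Zbtb16. For each of the 7 the lowest median was in cluster I, and this held after thinning except for Sall4 and with median-of-ratios scaling except for Dazl. How many of all genes had their lowest median in cluster I was not counted, so this cannot be read as particular to the 7.

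Dazl medians were 2100, 2263, 2348 and 2191 CPM in clusters I to IV, a ratio of 1.12 that was larger than that of 28 of the 2358 genes. Ddx4 medians were 456, 564, 664 and 589 CPM (cluster III over I, 1.46-fold), those of Sall4 were 611, 704, 803 and 643 CPM (III over I, 1.31-fold) and those of Stk31 were 309, 342, 420 and 451 CPM (IV over I, 1.46-fold). For these 4 genes the ranges of cells in the clusters overlapped widely. Zbtb16 medians were 189, 278, 390 and 398 CPM (IV over I, 2.11-fold), and the 4 cells under 10 CPM were spread over clusters I (1 cell), II (1) and III (2).

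Uchl1 had medians of 51.2, 101, 126 and 268 CPM in clusters I to IV, in the order of the cluster numbers, as were those of Zbtb16 and Stk31. The cluster IV cells had 54.3, 140.5, 266, 270, 328 and 348 CPM, against 16.7, 41.8, 49.4, 51.1, 51.2, 92.0, 98.3, 154 and 255 CPM in cluster I, so the cells overlapped while 5 of 6 cluster IV cells exceeded 7 of 9 cluster I cells. The medians differed 5.23-fold, more than for 2297 of the 2358 genes, and 3.68-fold after thinning. Summed counts gave 252 CPM in cluster IV (exact Poisson 95% interval 240.2 to 265) and 101 CPM in cluster I (95.98 to 106). Both intervals treat reads as independent and leave out the spread between cells, so they cannot show whether the clusters differ.

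Taf4b medians were 20.9, 83.9, 189 and 49.1 CPM in clusters I to IV, a 9.02-fold ratio of cluster III over cluster I and 8.25-fold after thinning. The difference lay in how many cells were high: 12 of 24 cells of cluster III had 200 CPM or more, against 1 of 9 in cluster I, with 10 of 32 in cluster II and 2 of 6 in cluster IV. Summed counts gave 199 CPM in cluster III (exact Poisson 95% interval 195 to 203) and 52.4 CPM in cluster I (48.8 to 56.3). These intervals treat reads as independent and leave out the spread between cells, so they cannot show whether the clusters differ. Cells under 10 CPM were found in each cluster (3, 5, 2 and 2 cells from I to IV). Median totals were 1444836, 1601407, 1681169 and 1121541 counts in clusters I to IV, so cluster IV was the shallowest and cluster III the deepest, and the part of depth beyond thinning was not tested.

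**Figure D4:**
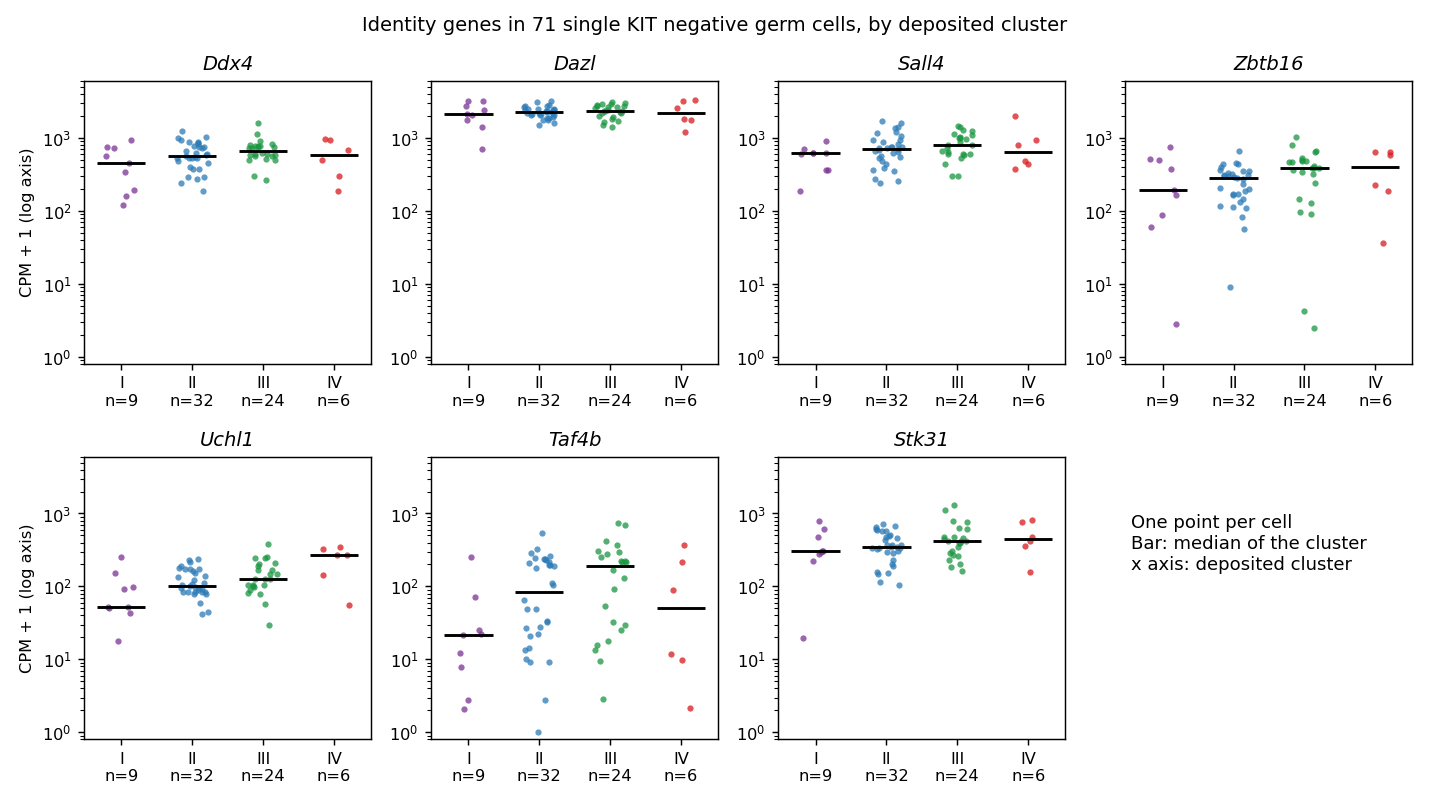
CPM + 1 (log axis) of each identity gene in 71 cells, by deposited cluster I to IV, with a bar at the cluster median. Dazl medians are nearly level (2100 to 2348 CPM), and those of Uchl1, Zbtb16 and Stk31 increase with the cluster number. Taf4b cells run from 1.11 to 249 CPM in cluster I, 0 to 537 in II, 1.82 to 740 in III and 1.14 to 365 in IV.

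The 7 genes varied largely apart from each other across cells. Spearman's rho over the 71 cells ranged from -0.10 (Uchl1 and Stk31) to 0.27 (Ddx4 and Sall4) over the 21 pairs. After thinning, Uchl1 and Stk31 had -0.20, and Ddx4 and Sall4 had 0.24. The next pairs were Sall4 and Taf4b (0.24), Ddx4 and Stk31 (0.20, but 0.09 after thinning) and Ddx4 and Zbtb16 (0.19). Dazl had its highest rho with Ddx4 (0.10). The correlation of each gene's CPM with the cell's total counts lay between -0.15 and 0.09. These are weak values in cells treated as 1 sample and are given as a description.

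**Figure D5:**
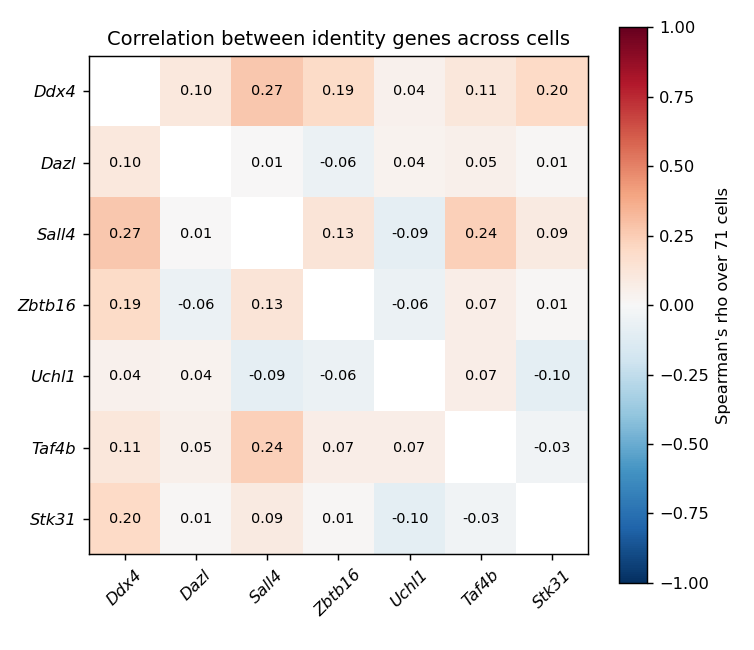
Spearman's rho of CPM over 71 cells for each pair of the 7 identity genes, from -1 (blue) to 1 (red), with the diagonal left blank. No pair is above 0.27, and that pair is Ddx4 and Sall4.

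Low values of the 7 genes were spread over many cells. In 24 cells none of the 7 genes was under 0.5 times its median, in 23 cells 1 was, in 12 cells 2, in 11 cells 3 and in 1 cell 4. The cells with none came from cluster II (11 cells), cluster III (11) and cluster IV (2), and 0 of the 9 cells of cluster I were among them. No such count was made for other genes, so it cannot be read as particular to these 7. The cell with 4 low genes was in cluster I and had 2742185 counts, above the median depth. It held 118 CPM of Ddx4, 183 of Sall4, 59.3 of Zbtb16 and 6.80 of Taf4b, beside 1754 CPM of Dazl and 255 of Uchl1. The single cell with Dazl under 0.5 times its median, at 700 CPM, was another cell of cluster I, with 158 CPM of Ddx4 and 748 of Zbtb16.

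Each identity gene was set against all genes detected in every cell to find the 3 most like it in CPM across the 71 cells. Those of Ddx4 included Ddx24, a DEAD-box gene of the nucleolus (Spearman's rho 0.48), and the locus LOC100039786 (0.43). For Dazl they were Nhp2l1, of the small nuclear ribonucleoprotein particles (0.49), Fkbp3 (0.42) and the histone gene H3f3a (0.40). Stk31 went with the splicing helicase gene Ddx46 (0.39), the DNA polymerase gene Pole (0.36) and Atg5 (0.35). Sall4 was followed by Atp6v1d (0.42), BC012278 (0.39) and the centrin gene Cetn3 (0.36). Zbtb16 was nearest to Aof2, the older symbol of the histone demethylase gene Kdm1a (0.46), Atpbd4 (0.42) and Hnrph2 (0.36). Taf4b was nearest to the chaperone gene Cdc37 (0.43), Blmh (0.41) and 2310028O11Rik (0.38), and Uchl1 to the translation inhibitor gene Pdcd4 (0.52), the ribosomal protein gene Rps12 (0.48) and Hsbp1 (0.47). As background, 97.5% of the 2357 other genes had a rho with Uchl1 under 0.31, and the corresponding bound was between 0.22 and 0.30 for the other 6. The 3 nearest genes are the highest of all that were ranked, so they exceed such a bound by construction. After thinning their rhos ranged from 0.24 (Taf4b and 2310028O11Rik) to 0.56 (Dazl and Nhp2l1). No identity gene was among the 3 nearest genes of another, and Taf4b, which was not detected in every cell, could not be.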

How the data were processed

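RNA was measured in sorted CD87 positive and CD87 negative germ cells (Smart-seq2, 2 libraries each) and in 71 single cells captured on a Fluidigm C1 machine, per the labels' protocols. The authors deposited TPM per gene for the sorted cells (Trim Galore and RSEM, build mm9) and expected counts per gene for the cells (Trim Galore and Salmon, build mm9), per the submitters' processing notes. The sources used here name neither versions nor an annotation. The other 5 libraries were not analysed here.

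The 7 genes, the gene lists and the tests were chosen with earlier results of these data known. Named genes were the 7, the 2 list members with the smallest p and the 2 with the highest median CPM, and the 3 genes most like each of the 7 across cells. A few genes under this rule are not reported here. Single marker genes, and TFIID and Tudor genes outside it, were named after their values were seen. Of 180 list entries 167 matched a symbol, 11 matched through a RefSeq synonym (GRCm38.p6, used for names) and 2 matched none.

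CD87 groups were compared with limma 3.58.1 (R 4.3.3) on log2(TPM + 1), a scale that understates changes of low genes, with a variance trend, two-sided. Genes with at least 1 TPM in at least 2 libraries entered. An exact permutation test of 2 against 2 cannot go below p = 0.333. The fit was tested on simulated data.

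Of the single-cell rows, 22 with names turned into dates (at most 0.609% of a cell's counts) were left out. No cell was removed and no doublet caller was run. Thinning drew 182150 counts from each cell after rounding. Alternatives were another pseudocount, no filter, no trend, 2 other scalings, a replicate block and leaving out libraries, and for cells another cut, size factors, thinning and a depth minimum.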

Additional observations from a re-analysis of the deposited data

How the results depend on the processing

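The count of genes called between the CD87 groups depended on the processing: from 3 it went to 1 with a pseudocount of 0.1, to 1 with no filter on low values, to 0 with no trend (limma, where the fit as reported had 428 higher and 201 lower genes at an unadjusted p under 0.05), and to 1 when TPM was rescaled without LOC672857, which also shifted the median log2 difference of all genes to -0.11. Leaving out 1 library gave 10 to 2988 calls. The label numbers 1 and 2 pair no libraries by any stated animal or day, and same-numbered libraries had a correlation of deviations of 0.07. With the replicate block 130 genes passed and none of the 7 was among them (Uchl1 had limma p = 0.0199, adjusted p = 0.356). With no library left out, that was the lowest limma adjusted p of any identity gene. Of 70 refits 61 kept their direction. No filter, no trend and the replicate block leave the log2 difference itself unchanged, so those refits could not reverse it. The direction reversed with quantile normalisation for Dazl (-0.062), Sall4 (-0.055) and Taf4b (-0.12) and when rescaled for Sall4 (-0.012) and Taf4b (-0.10). Leaving out 1 library gave -0.0088 to 0.305 for Dazl (reversed without the second CD87 positive one), -0.068 to 0.264 for Sall4 (reversed without the first CD87 positive one) and -0.20 to 0.214 for Taf4b (reversed without the first of either group, -0.17 for the CD87 negative one). The cause was not tested. All 98 refits of single-cell medians and shares moved by less than the standard deviation between cells or the binomial interval. For medians that bar is wide (160 CPM for Taf4b, with a median of 69.8 CPM), so passing it says little. Thinning took the Taf4b median to 54.9 CPM over all cells and from 49.1 to 32.9 CPM in cluster IV. The Uchl1 median in cluster IV went from 268 to 222 CPM. Genes detected in every cell numbered 6 of 7, also at a cut of 0.5, and 5 of 7 after thinning. The lowest cells of Taf4b and Zbtb16 held 0 and 1.95 expected counts, and those cells were not the shallowest.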

Other observations

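Uchl1 stood differently in the tables. With CPM divided by the longest GENCODE M21 protein-coding transcript of each gene, and both tables scaled to the 8671 tested genes that had such a length, Uchl1 placed 426 in the single cells and 76 in the sorted libraries. Its single-cell level over its sorted level, relative to the median gene, was -2.56 on the log2 scale (5th and 95th percentiles of all genes -3.25 and 1.89). The other 6 genes had values from 0.11 (Taf4b) to 1.85 (Stk31), and Dazl placed 21 in the cells and 158 in the sorted libraries. The tables were made by different protocols and quantifiers from cells of different sorts, and the authors' own transcript lengths were not used here, so what sets these values apart was not tested.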
